A study of Mus musculus with 4 samples.

Results

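Mucin-type O-glycans are the sugar chains that cover the mucins and the surface of airway epithelial cells, and 43 genes of the enzymes that build, extend, fucosylate, sialylate and sulfate them were followed here, of 27746 genes named on the arrays. The genes were chosen by their role, with earlier results of these data known. Each was read from the probes that carry its name in the scanner files. They were 11 polypeptide N-acetylgalactosamine (GalNAc) transferases, 2 genes of the core 1 step, 4 branching enzymes, 6 N-acetylglucosamine (GlcNAc) transferases, 2 galactosyltransferases, 8 sialyltransferases, 4 fucosyltransferases and 6 sulfotransferases.

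The cells were bronchial epithelial cells isolated from mouse lungs in an allergic asthma model with ovalbumin (OVA), a chicken egg protein, as the allergen. The 4 groups were challenged mice labelled Pla2g3-/-, control mice labelled Pla2g3-/-, challenged wild-type (Pla2g3+/+) mice and control wild-type mice, so that the series sets challenge against control in each genotype, and the genotypes against each other in each condition. Pla2g3 encodes group III secreted phospholipase A2, an enzyme that cleaves membrane phospholipids. Each group was 1 single-colour array of RNA pooled from 4 samples, all 4 arrays on 1 slide with 1 group per position, and slide position and group therefore cannot be told apart. Per the labels, sensitisation used 10 µg OVA with 1.3 mg alum in 0.2 ml saline, injected into the peritoneum on days 0 and 14. Challenge was an aerosol of 1% OVA for 30 min on each of days 26, 27 and 28, and the cells came from lungs taken 3 h later. The labels print this protocol for all 4 groups and do not say what the control mice received, so a challenge difference can include sensitisation. Age, sex, strain background, the kind of Pla2g3 allele and whether each pooled sample was 1 mouse are not stated there.

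Because each group was 1 array, no difference between 2 arrays has a replicate check, and none is given a p-value. Each is given as a log2 difference of the processed signal scaled to its array's 75th percentile, beside the unscaled signals in intensity units. The error that the scanner files attach to a difference was 0.20 to 0.41 over the detected members, which covers spot measurement and not the spread between mice. Signals of different probes are not set against each other, because probes differ in how brightly they read the same amount of RNA.

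The labelled genotype went against its own gene. The brighter Pla2g3 probe read 4154 and 2023 units on the challenged and control arrays labelled Pla2g3-/-, against 254 and 240 units on the challenged and control wild-type arrays. This put the arrays labelled Pla2g3-/- higher by 3.90 under challenge and by 3.19 without it, and whether the probe lies inside the deleted sequence is not known here. Those arrays are therefore called KO-labelled, and every genotype direction rests on that label.

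The labelled cell type carried its markers. All 8 pan-epithelial markers, among them Epcam and Krt8, were well above background on every array, with a median level of 4.21 and 3.85 on the KO-labelled challenged and control arrays and 4.13 and 3.94 on the wild-type challenged and control arrays (log2 of the scaled signal). RNA of other cells was present as well. The median over 10 developing T cell genes was -2.70 and 0.99 on the KO-labelled challenged and control arrays, against -4.44 and -3.81 on the wild-type challenged and control arrays, so the KO-labelled control array stood apart from the others. Their summed scaled signal was 1.73 and 25.5 on the KO-labelled challenged and control arrays, and 0.755 and 1.08 on the wild-type challenged and control arrays. The median over 10 neutrophil genes was -0.09 and -2.24 on the KO-labelled challenged and control arrays, against -1.51 and -2.51 on the wild-type challenged and control arrays. Of those 10 genes, 6 were at least 2-fold higher with challenge in each genotype (all genes: 3.89% on the KO-labelled and 1.79% on the wild-type arrays). Their summed signal, 259 and 226 on the KO-labelled challenged and control arrays and 247 and 236 on the wild-type challenged and control arrays, was mostly that of Ltf, a lactoferrin gene that airway epithelium also expresses. The median over 10 goblet cell genes was 4.19 and 3.27 on the KO-labelled challenged and control arrays, and 3.86 and 3.09 on the wild-type challenged and control arrays. All 10 goblet genes were detected, and their sums were 472 and 359 on the KO-labelled challenged and control arrays and 433 and 293 on the wild-type challenged and control arrays. No T cell, neutrophil or goblet marker was at 0 on any array. What part these cells had in the differences of the glycosylation genes was not tested, and in such pooled bulk RNA fewer cells of a type and less RNA per cell cannot be told apart.

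**Figure D1:**
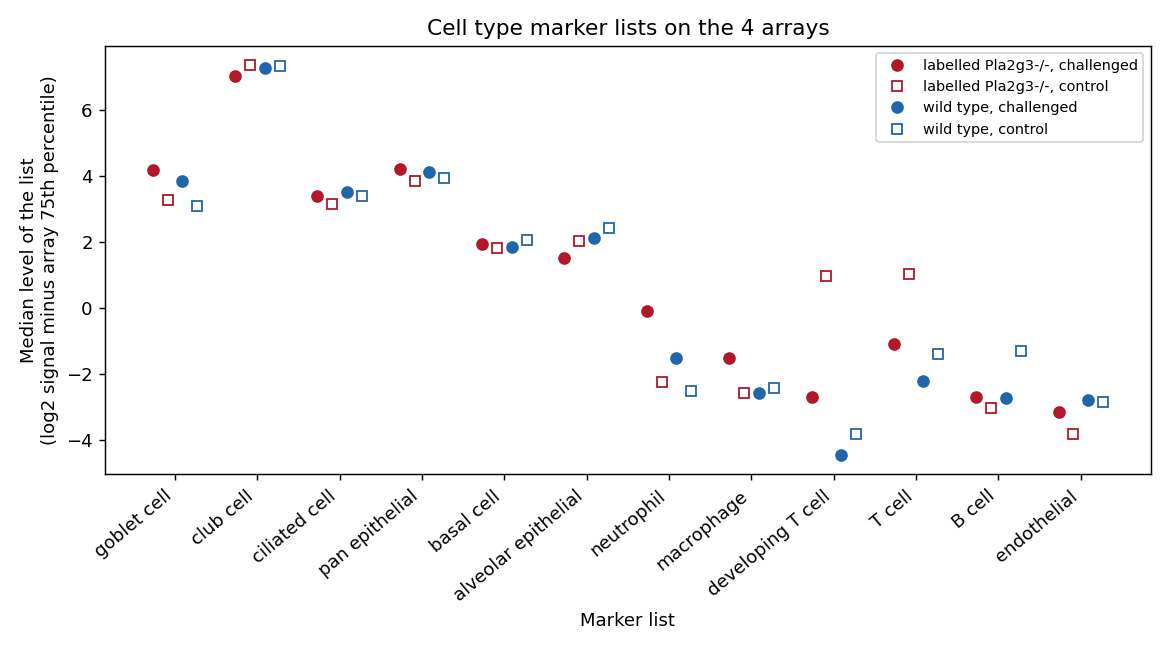
Median level of each cell type marker list on the 4 arrays. The vertical axis is the log2 signal minus the array's 75th percentile, filled points are challenged arrays, open squares are control arrays, red is KO-labelled and blue is wild type. The pan epithelial median lies between 3.85 and 4.21 on the 4 arrays and the goblet median between 3.09 and 4.19, the neutrophil median is highest at -0.09 on the KO-labelled challenged array, and the developing T cell median is highest at 0.99 on the KO-labelled control array.

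O-glycosylation of a mucin starts in the Golgi when a GALNT enzyme attaches GalNAc to a serine or threonine. C1galt1, folded with the help of its chaperone C1galt1c1 (Cosmc), adds galactose to make core 1, Gcnt enzymes branch it to core 2, and B3gnt6 makes core 3. B3gnt and B4galt enzymes then lengthen the chains in alternation, and sialic acid, fucose and sulfate cap them. In the airway these caps set much of the charge of mucus, and sulfated, sialylated and fucosylated chains are also ligands of selectins, which capture leukocytes.

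Of the 43 genes, 42 were well above background on all 4 arrays. Gcnt4, a core 2 branching enzyme, was not well above background on any, so it has no value. Of the 60 probes that carry the members' names, 27 genes had 1 probe, 15 had 2 and 1 had 3, and the brightest probe stood for the gene. Where a second probe was well above background on all 4 arrays, in 13 members, all probes had 1 sign in 9 members for challenge on the KO-labelled arrays, 7 for challenge in wild type, 8 for genotype under challenge and 9 for genotype without it.

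With challenge, 5 members differed at least 2-fold upward on the KO-labelled arrays, 4 of them sulfating or sialylating enzymes, while in wild type the widest differences were a GlcNAc transferase downward and a sulfotransferase upward. On the KO-labelled arrays 5 of 42 members were at least 2-fold higher with challenge (all genes: 3.89%), namely Chst5, Chst4, St3gal1, St3gal4 and B3gnt7, and 1 was at least 2-fold lower (all genes: 3.46%), Gal3st2. On the wild-type arrays 1 of 42 was at least 2-fold higher (all genes: 1.79%), Chst5, and 1 at least 2-fold lower (all genes: 1.70%), B3gnt5. The median challenge difference over the members was 0.12 on the KO-labelled arrays and 0.14 on the wild-type arrays, beside -0.06 and -0.03 over all genes measured. At a lower line of 1.5-fold, 9 members were higher (all genes: 7.77%) and 2 lower (all genes: 10.0%) on the KO-labelled arrays, with Galnt3, Galnt14, B4galt1 and St6galnac2 joining the higher ones and St6galnac1 the lower. On the wild-type arrays 5 were higher (all genes: 4.57%), Chst5, Chst4, St3gal1, St3gal4 and Gcnt3, and 2 were lower (all genes: 5.32%), B3gnt5 and St6galnac1.

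Chst5 and Chst4 encode sulfotransferases that put sulfate on GlcNAc. Chst5 read 747 and 183 units on the KO-labelled challenged and control arrays, and 828 and 376 units on the wild-type challenged and control arrays. The challenged array was thus the brighter one in both genotypes, by 1.92 on the KO-labelled and 1.28 on the wild-type arrays, the widest challenge gap of any member in either genotype in the upward direction. Chst4, known in mice for sulfating selectin ligands in lymph node vessels, read 391 and 161 units on the KO-labelled challenged and control arrays, and 340 and 236 units on the wild-type challenged and control arrays. Its differences were 1.17 on the KO-labelled arrays and 0.66 on the wild-type arrays, and the KO-labelled value was 0.90 with another background correction (normexp). On both genes the KO-labelled control array was the lowest of the 4, and the challenged arrays of the genotypes differed by -0.28 for Chst5 and 0.07 for Chst4.

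Other sulfating enzymes did not share this direction. Gal3st2, which sulfates galactose, read 312 and 624 units on the KO-labelled challenged and control arrays, and 1721 and 2696 units on the wild-type challenged and control arrays, a difference of -1.11 on the KO-labelled and -0.51 on the wild-type arrays. Its level was lower with challenge in both genotypes, and the KO-labelled difference was -0.59 as the mean of its probes. Gal3st1, the galactose sulfotransferase of sulfatide, differed by -0.32 on the KO-labelled and -0.13 on the wild-type arrays, Chst1, a keratan sulfate sulfotransferase, by 0.03 and 0.14, and Chst2, a further GlcNAc sulfotransferase, by 0.07 and 0.16. Chst2 was dim, at 19.0 and 16.8 units on the KO-labelled challenged and control arrays and 16.3 and 16.0 units on the wild-type challenged and control arrays. The spread within the class, from -1.11 to 1.92 on the KO-labelled arrays, was the widest of the 8 classes.

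Among the sialyltransferases, St3gal1 caps the galactose of core 1 and thereby competes with core 2 branching, and St3gal4 caps lactosamine chains. St3gal1 read 8705 and 2555 units on the KO-labelled challenged and control arrays, and 4795 and 3157 units on the wild-type challenged and control arrays. It was higher with challenge by 1.66 on the KO-labelled and 0.74 on the wild-type arrays, and its second probe gave 1.77 and 1.08. St3gal4 read 5631 and 1751 units on the KO-labelled challenged and control arrays, and 2876 and 1748 units on the wild-type challenged and control arrays. The control arrays of St3gal4 were nearly level, and the challenged arrays stood above them by 1.58 in the KO-labelled and 0.85 in the wild-type pair.

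St6galnac2, which adds sialic acid to the GalNAc of core 1, read 9486 and 5548 units on the KO-labelled challenged and control arrays, and 6130 and 4867 units on the wild-type challenged and control arrays. It was brighter on the challenged array by 0.66 and 0.47 in the KO-labelled and wild-type pairs. St6galnac1, the sialyl-Tn synthase, read 2190 and 3765 units on the KO-labelled challenged and control arrays, and 3116 and 5389 units on the wild-type challenged and control arrays, differences of -0.89 and -0.65. Its other probe gave 0.55 and 0.32, the opposite sign, and the mean of its probes -0.17 in each genotype, so the direction of St6galnac1 depends on the probe. The remaining 4 sialyltransferases, St3gal2, St3gal3, St3gal6 and St6gal1, lay between -0.20 and 0.14 in both genotypes, no farther from 0 than the scanner error of a difference.

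**Figure D2:**
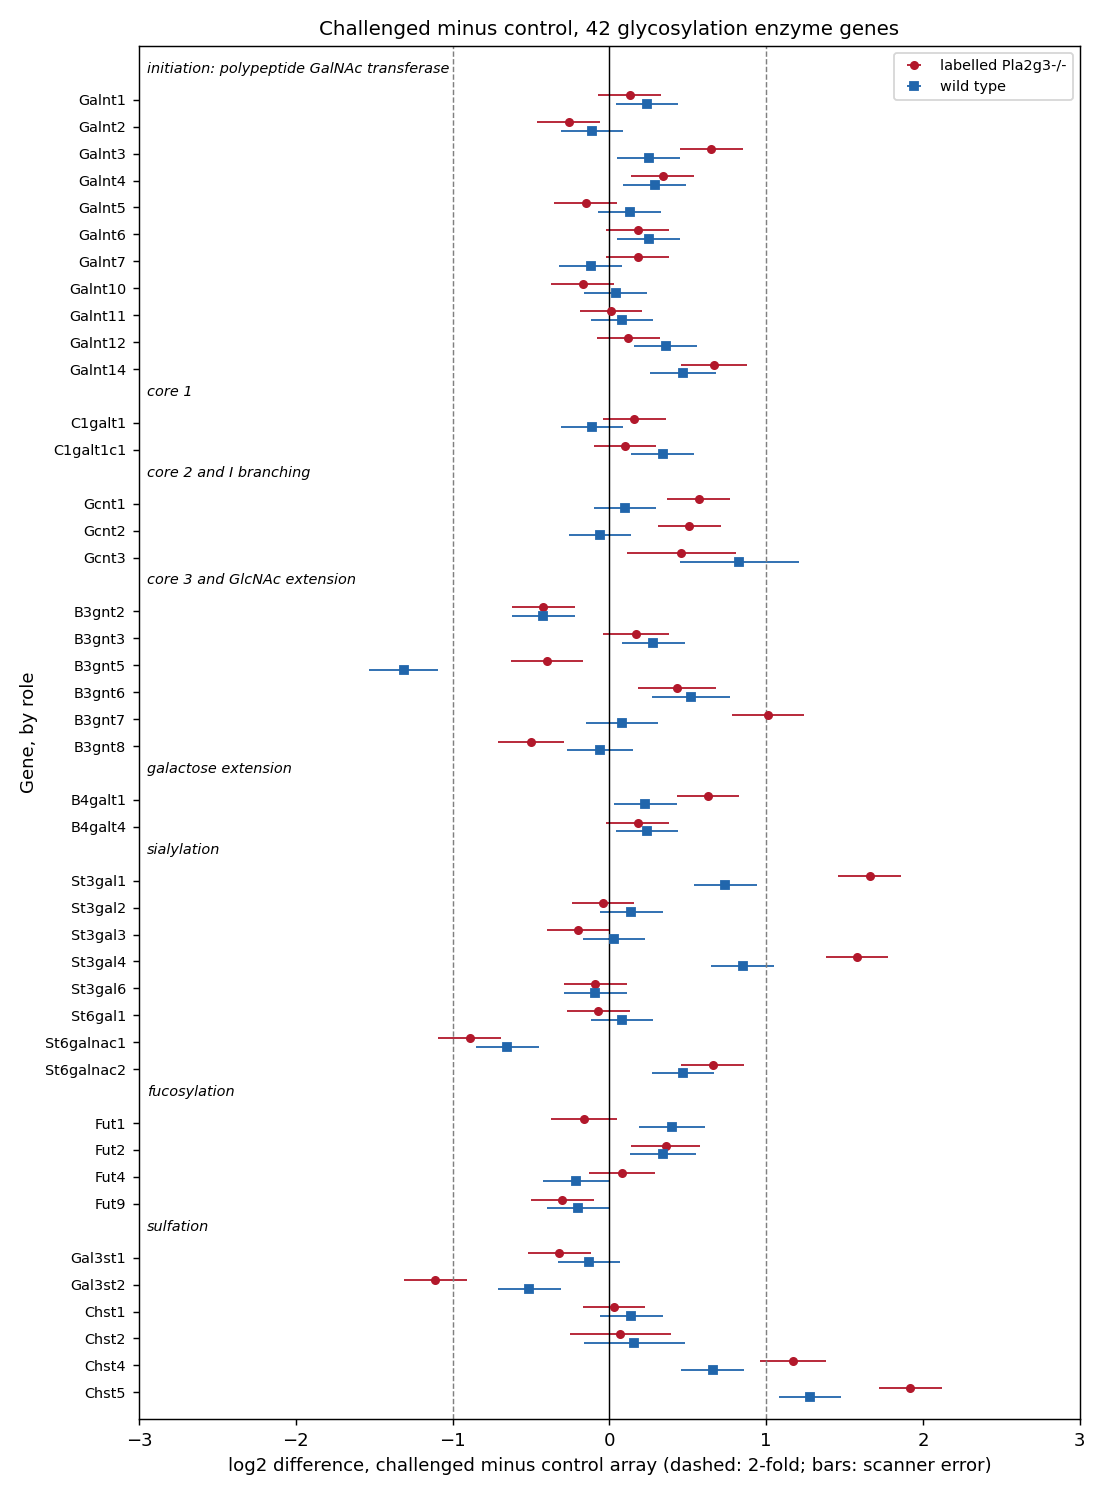
Challenge differences of the 42 detected members, grouped by role. The horizontal axis is the log2 difference of the challenged array minus the control array, red circles are KO-labelled and blue squares wild type, bars are the error of a difference from the scanner files and dashed lines mark 2-fold. Chst5, St3gal1 and St3gal4 lie farthest to the right on the KO-labelled arrays, at 1.92, 1.66 and 1.58, and Gal3st2 farthest to the left at -1.11.

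At the initiating step, 8 of the 11 GalNAc transferases were above 0 with challenge on the KO-labelled arrays and 9 of 11 on the wild-type arrays, beside 42.4% and 45.7% of all genes measured, and none reached 2-fold in either genotype. Their medians were 0.13 and 0.24, and the scanner error of these differences was 0.20 to 0.21. On the KO-labelled arrays only Galnt3, Galnt4 and Galnt14 were farther above 0 than that error, and Galnt2 was farther below. In wild type Galnt1, Galnt3, Galnt4, Galnt6, Galnt12 and Galnt14 were farther above 0 than the error. The count of signs therefore includes genes that cannot be told from 0. Galnt3, which is known to glycosylate the phosphate hormone FGF23, read 13600 and 8054 units on the KO-labelled challenged and control arrays, and 10420 and 9630 units on the wild-type challenged and control arrays. Its difference was 0.65 on the KO-labelled and 0.25 on the wild-type arrays. Galnt14 read 118 and 68.5 units on the KO-labelled challenged and control arrays, and 79.9 and 63.3 units on the wild-type challenged and control arrays, differences of 0.67 and 0.47. Its other probe, well above background on all 4 arrays, gave 0.18 and -0.01, and the KO-labelled difference fell below the 1.5-fold line with normexp (0.36) and as the mean of the probes (0.42). Galnt2, a broadly expressed initiator, was at -0.26 on the KO-labelled and -0.11 on the wild-type arrays. Galnt12 differed by 0.12 and 0.36, and Galnt4 by 0.34 and 0.29, both of which act mainly on peptides that already carry GalNAc. The core 1 pair stayed near its controls, C1galt1 at 0.16 and -0.11 and its chaperone C1galt1c1 at 0.10 and 0.34 on the KO-labelled and wild-type arrays.

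By their brightest probes, the branching enzymes Gcnt1, Gcnt2 and Gcnt3 were brighter with challenge on the KO-labelled arrays. On the wild-type arrays Gcnt1 was brighter by less and Gcnt2 was not brighter. The Gcnt2 and Gcnt3 values depended on the probe or the background correction. Gcnt1, the widespread core 2 enzyme, read 11180 and 6989 units on the KO-labelled challenged and control arrays, and 10250 and 10540 units on the wild-type challenged and control arrays. Of these 4 values the KO-labelled control stood apart as the lowest, so the difference was 0.57 on the KO-labelled and 0.10 on the wild-type arrays, and the other 2 probes of Gcnt1 gave 0.95 and 0.88 on the KO-labelled arrays. Gcnt2, which makes the branched I antigen, read 2479 and 1609 units on the KO-labelled challenged and control arrays, and 2032 and 2324 units on the wild-type challenged and control arrays. Its differences were 0.51 and -0.06, again with the KO-labelled control array lowest. The other Gcnt2 probe, well above background on all 4 arrays, gave 0.00 and 0.01, and the mean of the probes put the KO-labelled difference at 0.26. Gcnt3, the mucin-type branching enzyme that can make core 2, core 4 and I branches, was dim at 17.3 and 11.7 units on the KO-labelled challenged and control arrays and 16.0 and 9.88 units on the wild-type challenged and control arrays. Its differences of 0.46 and 0.83 carried a scanner error of 0.31 to 0.41 and became 0.00 and 0.18 with normexp correction.

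Extension enzymes went both ways. B3gnt7, known for making keratan sulfate chains, read 84.8 and 38.9 units on the KO-labelled challenged and control arrays, and 46.0 and 47.8 units on the wild-type challenged and control arrays. The KO-labelled challenged array was the only high one, 1.01 above its control, against 0.08 in the wild-type pair, and the first difference was 0.41 with normexp correction. B3gnt5, which starts the lacto-series chains of glycolipids, read 44.0 and 53.8 units on the KO-labelled challenged and control arrays, and 39.5 and 108 units on the wild-type challenged and control arrays. Here the wild-type control was the high array, so challenge differed by -0.40 on the KO-labelled and -1.31 on the wild-type arrays, and the wild-type value was -0.69 with normexp. The same array held the most B cell RNA, with a summed signal over 8 B cell genes of 2.37 and 2.26 on the KO-labelled challenged and control arrays and 2.06 and 5.47 on the wild-type challenged and control arrays, and its part in B3gnt5 was not tested. B3gnt2, the main polylactosamine enzyme, was lower by the same amount in both pairs, at -0.42 each. B3gnt6, the core 3 synthase, was dim and differed by 0.43 and 0.52, and B3gnt8, which acts together with B3gnt2, by -0.50 and -0.06. B4galt1, the main galactose-adding partner in chain growth, differed by 0.63 and 0.23 by its brightest probe and by 0.68 and 0.32 by its other probe, while B4galt4 was at 0.18 and 0.24. The 4 fucosyltransferases Fut1, Fut2, Fut4 and Fut9 lay between -0.30 and 0.40 in both genotypes.

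The challenge differences of the members in the genotypes come from separate pairs of arrays. They had the same sign for 32 of 42 members (76.2%), beside 64.7% of 21576 genes well above background on all 4 arrays. The correlation over the 42 members was r = 0.77 (Spearman's rho 0.73), beside 0.41 and 0.38 over all such genes, as a description across genes that share arrays and are not independent. Chst5 was the member at least 2-fold higher with challenge in both genotypes (all genes: 0.654%), and 0 members were at least 2-fold lower in both (all genes: 0.213%). At 1.5-fold the members higher in both were Chst4, Chst5, St3gal1 and St3gal4 (all genes: 1.78%). By its brightest probe St6galnac1 was lower in both (all genes: 1.61%).

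The additive limma fit across the 4 arrays, with 1 residual degree of freedom, counts any disagreement of the genotypes as error and called no member for challenge at an adjusted p of 0.05 (all genes: 0.00436% called higher, 0% called lower). At an unadjusted p under 0.05, 13 of the 42 members passed, 9 higher and 4 lower, beside 14.7% of 22930 genes. Chst5 had the smallest adjusted p of the members, 0.202, with an average difference of 1.60 (SE 0.20), higher in both genotypes. St6galnac1 averaged -0.77 (adjusted p 0.205), St3gal4 1.21 (adjusted p 0.220), St6galnac2 0.57 (adjusted p 0.228), Chst4 0.92 (adjusted p 0.247) and St3gal1 1.20 (adjusted p 0.255) in the same limma fit. Across the alternative settings the smallest adjusted p of a member lay between 0.148 and 0.423, and no member was called.

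Since the KO-labelled control array held the developing T cell RNA, the KO-labelled challenged array was also set against the wild-type control array, a difference that mixes challenge with genotype and was added after the data were seen. In it 3 of 42 members were at least 2-fold higher (all genes: 4.10%), namely Galnt10, St3gal1 and St3gal4, at 1.62, 1.47 and 1.69. St3gal1 and St3gal4 thus stood at least 2-fold above either control array. Chst5 was at 1.00, just under the 2-fold line, Chst4 at 0.74 and B3gnt7 at 0.83. At least 2-fold lower were 4 of 42 (all genes: 3.25%), namely Gal3st2, B3gnt3, B3gnt5 and St6galnac1. The other St6galnac1 probe went the opposite way, at 247 units on the KO-labelled challenged array and 149 units on the wild-type control array. The St6galnac1 value in the limma fit likewise rests on its brightest probe alone.

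The promoters of Chst5, Chst4 and St3gal4, 3 of the 4 genes higher in both genotypes at 1.5-fold, are shown so that their sequences can be set side by side. They are RefSeq windows of 300 bases on GRCm38.p6, 250 bases before and 50 after the annotated start, all on the minus strand and given 5′ to 3′ of the gene. Capitals mark a match to the AP-1 motif, TGANTCA.

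Chst5 promoter, chr8:111910150-111910449: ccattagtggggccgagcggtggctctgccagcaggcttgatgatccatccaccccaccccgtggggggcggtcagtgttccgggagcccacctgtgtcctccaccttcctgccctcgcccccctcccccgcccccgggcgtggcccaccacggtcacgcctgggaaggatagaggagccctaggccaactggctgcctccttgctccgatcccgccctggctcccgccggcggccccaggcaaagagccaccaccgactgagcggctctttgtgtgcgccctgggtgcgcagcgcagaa

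Chst4 promoter, chr8:110039285-110039584: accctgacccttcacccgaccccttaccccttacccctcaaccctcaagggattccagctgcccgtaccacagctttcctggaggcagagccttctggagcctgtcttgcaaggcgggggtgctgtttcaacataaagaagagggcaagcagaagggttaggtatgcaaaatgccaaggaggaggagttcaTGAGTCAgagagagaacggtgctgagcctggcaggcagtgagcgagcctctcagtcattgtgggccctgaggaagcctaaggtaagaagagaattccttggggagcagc

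St3gal4 promoter, chr9:35116815-35117114: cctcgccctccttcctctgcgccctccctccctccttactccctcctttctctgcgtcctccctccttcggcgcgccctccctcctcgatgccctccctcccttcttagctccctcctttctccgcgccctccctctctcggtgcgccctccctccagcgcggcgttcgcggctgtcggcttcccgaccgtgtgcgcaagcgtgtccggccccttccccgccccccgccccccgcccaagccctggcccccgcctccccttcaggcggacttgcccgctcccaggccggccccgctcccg

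The windows differ in make-up. Those of Chst5 and St3gal4 are 70.7% and 74.0% G and C with 21 and 31 CpG dinucleotides, that of Chst4 is 56.3% G and C with 5, and the median over 32851 mouse promoter windows is 52.7% with 7. A search on both strands for TGANTCA found 1 match, in Chst4, 59 bases before the start, and neither the STAT6 motif (TTC and GAA with any 4 bases between) nor the NF-kB consensus had a match in the 3 windows. Over 42 windows of the 30 members found in the table, 7.14% held the AP-1 motif, 2.38% the STAT6 motif and 2.38% the NF-kB consensus, beside 7.81%, 6.95% and 4.51% of all windows. Such matches describe letters, not binding.

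**Figure D3:**
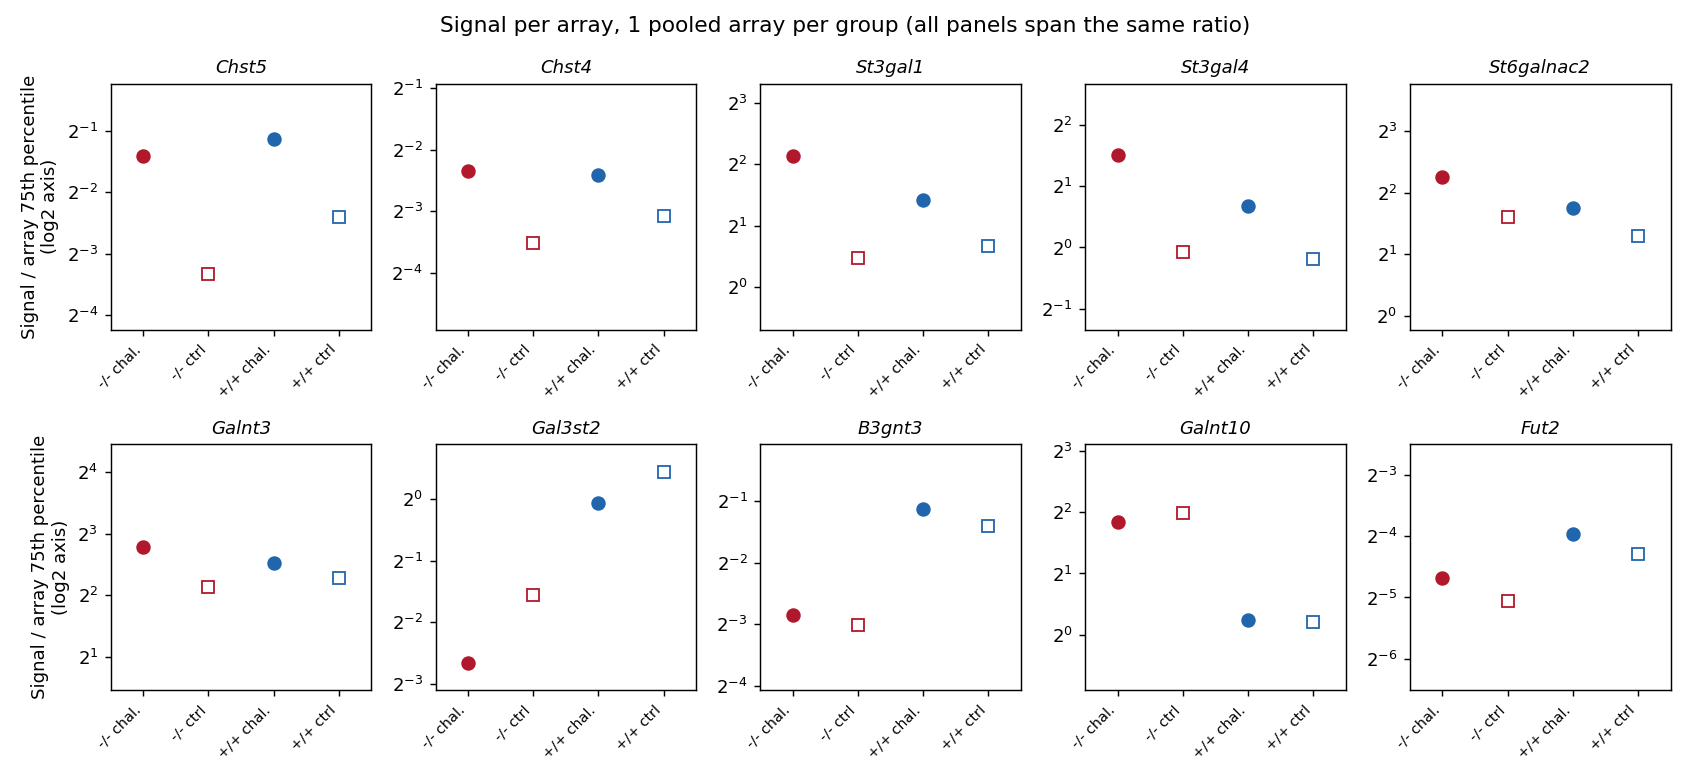
Scaled signal of 10 members on each array, as the signal divided by the array's 75th percentile on a log2 axis, all panels spanning the same ratio. Filled circles are challenged and open squares control arrays, red is KO-labelled (-/-) and blue wild type (+/+). In the panels of Chst5, Chst4, St3gal1, St3gal4, St6galnac2 and Galnt3 both challenged arrays lie above both control arrays, and in those of Gal3st2, B3gnt3, Galnt10 and Fut2 the KO-labelled arrays lie apart from the wild-type arrays.

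Between the genotypes, 3 members stood at least 2-fold apart in the same direction under challenge and without it. Under challenge 1 of 42 members was at least 2-fold higher on the KO-labelled array (all genes: 3.87%) and 2 were at least 2-fold lower (all genes: 2.46%). On the control arrays the numbers were the same, 1 higher (all genes: 3.25%) and 2 lower (all genes: 1.80%). The genes were Galnt10, higher, and Gal3st2 and B3gnt3, lower, in both conditions. Of 21576 genes 0.723% were at least 2-fold higher and 0.324% at least 2-fold lower in both conditions. The median genotype difference over the members was -0.02 under challenge and -0.05 without it, beside -0.05 and -0.03 over all genes measured. At 1.5-fold, 4 members were higher (all genes: 7.91%) and 4 lower (all genes: 7.08%) on the KO-labelled array under challenge, where B3gnt7, St3gal1 and St3gal4 joined Galnt10, and Fut2 and St6galnac1 joined Gal3st2 and B3gnt3. The other St6galnac1 probe gave 0.41 here, the opposite sign, so this direction also depends on the probe. Across the alternative settings St6galnac1 lay between -0.64 and -0.12, and B3gnt7 between 0.31 and 0.75. On the control arrays 1 was higher (all genes: 6.67%), Galnt10, and 5 were lower (all genes: 5.77%), with B3gnt5, Fut2 and Chst5 beside Gal3st2 and B3gnt3.

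Gal3st2, the galactose sulfotransferase, was at 312 and 624 units on the KO-labelled challenged and control arrays, as given above, against 1721 and 2696 units on the wild-type challenged and control arrays. The KO-labelled arrays were the lower ones, at -2.59 on the log2 scale under challenge and -2.0 without it, and 0.0951% and 0.293% of all genes measured lay at least as far down. The other Gal3st2 probe was well above background on both wild-type arrays, at 35.3 and 48.4 units under challenge and without it, and not well above background on either KO-labelled array, at 6.15 and 6.02 units. The probes lie on chromosome 1 at 95773011-95773070 and 95771435-95771494 of mm9, and both are also assigned in the files to the near copy Gal3st2b, so they cannot tell the copies apart.

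The probes of Chst2 gave genotype differences of unlike size. Its second probe was well above background on both KO-labelled arrays, at 32.7 and 20.3 units under challenge and without it, and not well above background on either wild-type array, at 8.70 and 7.72 units. The chosen probe put the Chst2 genotype differences at 0.09 under challenge and 0.18 without it, and the mean of the probes at 0.93 and 0.85, so the size of the Chst2 difference depends on the probe.

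B3gnt3, which extends core 1 and makes the backbone that is sulfated in selectin ligands, read 275 and 226 units on the KO-labelled challenged and control arrays, against 827 and 747 units on the wild-type challenged and control arrays. The differences were -1.72 under challenge and -1.61 without it, and both KO-labelled arrays lay below both wild-type arrays. Its probe lies on chromosome 8 at 74215637-74215696 of mm9. Galnt10, a GalNAc transferase that prefers peptides already carrying GalNAc, read 7020 and 7298 units on the KO-labelled challenged and control arrays, against 2147 and 2299 units on the wild-type challenged and control arrays. It was higher on the KO-labelled arrays by 1.58 and 1.78, and its probe lies on chromosome 11 at 57600941-57601000 of mm9. For B3gnt3 and Galnt10 challenge moved neither genotype by more than 0.28, so their 4 values fall into a KO-labelled and a wild-type pair.

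Fut2, the secretor fucosyltransferase that makes the H antigen on mucins, read 76.5 and 55.2 units on the KO-labelled challenged and control arrays, against 117 and 101 units on the wild-type challenged and control arrays. Its genotype differences were -0.74 under challenge and -0.76 without it, the second being -0.38 with normexp. With Gal3st2 and B3gnt3 it made 3 members at least 1.5-fold lower in both conditions (all genes: 1.48%), where 1 member, Galnt10, was higher in both (all genes: 2.26%). Fut1, which also makes the H antigen, differed by -0.41 under challenge and 0.15 without it, so the H enzymes did not share the pattern. Among the other fucosyltransferases, Fut4 and Fut9, which make Lewis x, were at -0.06 and -0.29 under challenge and at -0.36 and -0.20 without it.

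**Figure D4:**
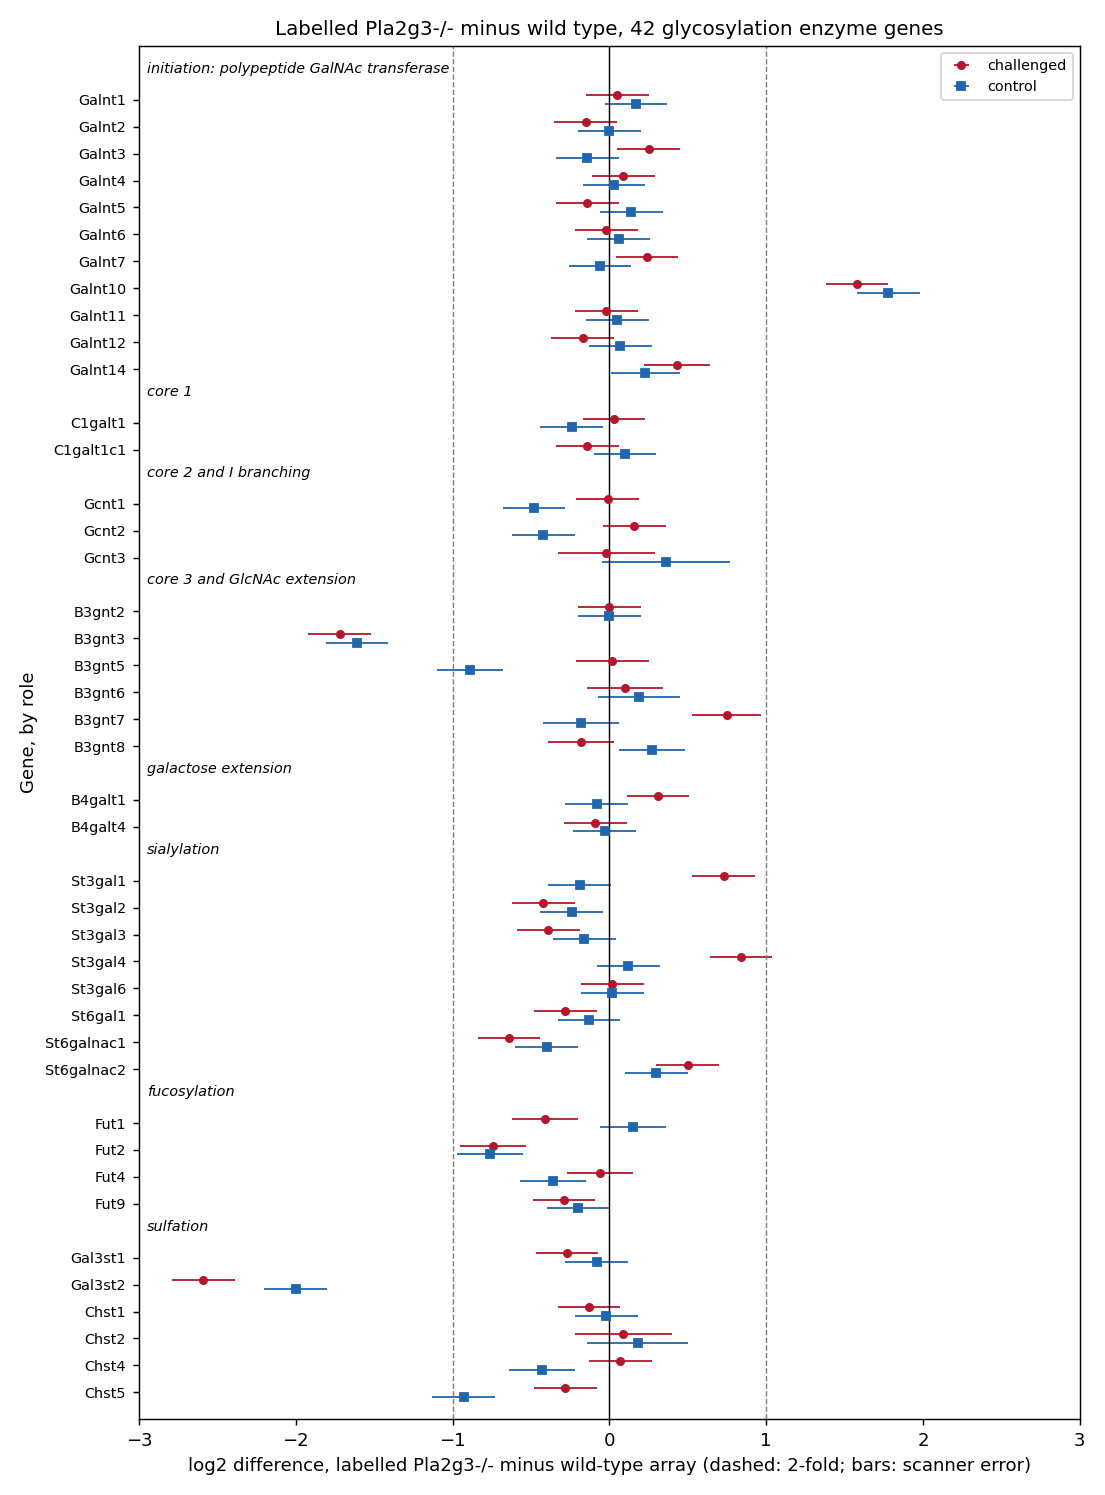
Genotype differences of the 42 detected members, grouped by role. The horizontal axis is the log2 difference of the KO-labelled array minus the wild-type array, red circles are challenged and blue squares control, bars are the error of a difference from the scanner files and dashed lines mark 2-fold. Galnt10 lies right of the 2-fold line at 1.58 and 1.78, and B3gnt3 and Gal3st2 lie left of it in both conditions.

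In the limma fit no member was called for genotype (all genes: 0% called higher and 0% lower), while 8 members, 2 higher and 6 lower, and 11.8% of all genes had an unadjusted p under 0.05. Galnt10 averaged 1.68 (SE 0.10, adjusted p 0.104), B3gnt3 -1.67 (SE 0.12, adjusted p 0.124), Gal3st2 -2.29 (SE 0.18, adjusted p 0.125) and Fut2 -0.75 (SE 0.17, adjusted p 0.269), each with 1 sign in both conditions. Under the alternative settings the smallest adjusted p of a member for genotype ranged from 0.0618 to 0.339. The genotype signs matched in 25 of 42 members (59.5%), beside 57.5% of all genes. Over the 42 members r was 0.79 and Spearman's rho 0.37, and over all genes they were 0.34 and 0.28. Galnt10, Gal3st2 and B3gnt3, at least 2-fold apart in both conditions, weigh more in r than in rho, so r does not describe the members as a whole. As with challenge, the genes share arrays and are not independent.

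The signed challenge difference on the KO-labelled arrays minus that on the wild-type arrays was at least 1.5-fold above 0 for 5 of 42 members (all genes: 6.48%) and at least 1.5-fold below 0 for 1 (all genes: 7.16%), and no member reached 2-fold (all genes: 2.83% above, 2.71% below). The 5 were B3gnt7 at 0.94, St3gal1 at 0.92, B3gnt5 at 0.91, St3gal4 at 0.72 and Chst5 at 0.65, and the 1 was Gal3st2 at -0.60. B3gnt5 was lower with challenge in both genotypes, by less on the KO-labelled arrays, and Gal3st2 was lower in both, by more on the KO-labelled arrays. These values have no residual error and were not tested. B3gnt7 and B3gnt5 were dim, and their challenge differences shrank with normexp, to 0.41 on the KO-labelled arrays for B3gnt7 and -0.69 in wild type for B3gnt5. Across the alternative settings the genotype difference of B3gnt5 on the control arrays lay between -0.89 and -0.44. That of B3gnt7 under challenge lay between 0.31 and 0.75. For Chst5 and B3gnt5 the gap lay more on the control arrays, where the KO-labelled array was at -0.93 and -0.89 against wild type, beside -0.28 and 0.02 under challenge. For St3gal1, St3gal4 and B3gnt7 it lay on the challenged arrays, at 0.73, 0.84 and 0.75, beside -0.19, 0.12 and -0.18 on the control arrays. The array with the highest neutrophil median, the KO-labelled challenged one, was also the highest for St3gal1, St3gal4 and B3gnt7, and the array with the developing T cell RNA was the lowest for Chst5, Chst4 and Gcnt1. Neither trait was particular to the named genes. St3gal1 and B3gnt7 were lowest on that KO-labelled control array as well. Galnt3, B4galt1 and Gcnt2 were likewise highest on the KO-labelled challenged and lowest on the KO-labelled control array. Macrophage and endothelial genes also differed between these arrays. Of 8 macrophage genes, all detected, 4 were at least 2-fold higher with challenge on the KO-labelled arrays (median 0.95) and 0 in wild type (median -0.03), and their summed signal was 7.70 and 3.47 on the KO-labelled challenged and control arrays and 3.05 and 4.64 on the wild-type challenged and control arrays. Of 8 endothelial genes, 3 were at least 2-fold higher with challenge on the KO-labelled arrays (median 0.82) and 0 in wild type (median -0.11), with sums of 3.92 and 3.54 on the KO-labelled challenged and control arrays and 3.43 and 4.01 on the wild-type challenged and control arrays. The part of these cells in the values was not tested.

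The substrates and donors of the pathway gave the surroundings of these differences. Of 6 mucin genes measured in both KO-labelled arrays 2 were at least 2-fold higher with challenge (all genes: 3.89%). In wild type it was 0 of 7 (all genes: 1.79%), with Muc2 as a bound. The medians were 0.72 and 0.37. Muc5ac, the inducible secreted airway mucin, read 786 and 328 units on the KO-labelled challenged and control arrays, and 678 and 410 units on the wild-type challenged and control arrays, differences of 1.15 and 0.86. Muc13, a membrane mucin, differed by 1.72 and 0.81. None of 19 genes that make sugar nucleotides and activated sulfate reached 2-fold in either genotype, with medians of -0.02 on the KO-labelled and 0.14 on the wild-type arrays. Among them Uap1, which makes UDP-GlcNAc, was at 0.74 on the KO-labelled and 0.42 on the wild-type arrays. The 7 Golgi transporters of these donors had medians of -0.10 and -0.08, and 10 N-glycan branching enzymes 0.07 and -0.03.

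Other transferases of the same families gave values as well. None of the 8 further sialyltransferases measured was at least 2-fold higher with challenge in either genotype, and St8sia4, a polysialyltransferase, was at -0.47 on the KO-labelled and -1.02 on the wild-type arrays. Of 12 further fucosyl- and sulfotransferases 2 were at least 2-fold lower with challenge on the KO-labelled arrays (all genes: 3.46%). They were Chst10, which makes the HNK-1 epitope, at -1.35 and Chst9, which sulfates GalNAc, at -1.16, beside -0.51 and -0.58 on the wild-type arrays. Of 11 further extending enzymes none reached 2-fold with challenge on the KO-labelled arrays, and under challenge B3galt5 and B4galt6 were higher on the KO-labelled than on the wild-type array, by 1.17 and 1.03.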

How the data were processed

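Each of 4 groups was 1 Agilent single-colour array, grouped by the labels. Spot intensity in the deposited files was extracted with Agilent Feature Extraction 11.5.1.1, per the submitters' processing notes, and per the file headers it is given after background subtraction by spatial detrending and a multiplicative detrending, with probes placed on mm9. The series matrix deposited by the authors equalled that processed signal divided by the array's 75th percentile (the log2 ratio varied by at most 1.59e-06 within an array), with column medians of 0.0850, 0.0879, 0.0860 and 0.0875 for KO-labelled challenged, KO-labelled control, wild-type challenged and wild-type control.

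From the deposited intensity, log2 values minus the array's 75th percentile (1979, 1834, 1808 and 1986 units in the same order) were taken over 43020 spots per array that are not controls. Outlier spots (128 to 155 per array) were left out, no spot was saturated, and spots of 1 probe were averaged. Median local background was 25.0 to 25.5 units, and the number of arrays limits the precision. Of 39429 probes, 28330 took their symbol from RefSeq accessions (GRCm38.p6) and the others kept the file's name, with 3404 unnamed. The brightest probe stood for a gene. A gene counted as measured in a difference where it was well above background on at least 1 of the 2 arrays, with a bound taken on the dim side. Over 399 probes printed 10 times, the SD between spots of a difference had a median of 0.09.

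An additive limma fit (limma 3.58.1, R 4.3.3) of genotype and challenge over 22930 genes well above background on at least 2 arrays, with Benjamini-Hochberg adjustment, was the only test. On simulated data of 22930 genes it called 93 of 100 genes changed by 2 on the log2 scale, 100 of 100 changed by 4 and 40 of 22730 unchanged ones. The simulation drew independent noise from the fit's own variances, with the same challenge change built into both genotypes. It checks the code and cannot say what share of real changes the fit would call on these arrays. Alternatives were normexp (offset 50), quantile normalization, the mean of a gene's probes, outlier spots kept, only genes detected on all 4 arrays, the series matrix, a 1.5-fold line and a fit with no trend. All members could be named, with full values for those at least 2-fold different in any comparison, the highest and lowest of a role and related members that differed, and up to 3 genes of each other list. The members and lists were chosen with earlier results of these data known. The p-values rest on the disagreement of the 2 genotypes about challenge, 1 residual degree of freedom, with variance borrowed from other genes. They do not measure spread between mice or between arrays of a group. Exon and UTR positions of the mm9 probes were not used here.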

Additional observations from a re-analysis of the deposited data

Results flagged for a closer look

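The genotype difference had opposite signs under challenge and without it, each by at least 0.18, which is 2 times the SD between spots of a difference, for 2 members. B3gnt7 was at 0.75 under challenge and -0.18 on the control arrays (KO-labelled minus wild type). St3gal1 was at 0.73 under challenge and -0.19 on the control arrays, and its second probe at 0.63 and -0.06. Both control-array values were no farther from 0 than their scanner error, 0.24 for B3gnt7 and 0.20 for St3gal1, so the opposite signs are not established. Across the alternative settings the B3gnt7 control-array value lay between -0.18 and -0.02. With 1 array per group, the difference between the conditions was not tested.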

How the results depend on the processing

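Under the 6 reprocessings no member difference of at least 2-fold changed sign. Quantile normalization moved the 168 member differences by at most 0.10, and kept outlier spots, detection on all 4 arrays and the series matrix by less than 0.01. Normexp moved 18 of 168 by more than their scanner error and the mean of a gene's probes 16 of 168, by up to 0.66 and 0.84. Before rounding, signs changed for 8 differences with normexp, 5 with the mean of probes and 2 with quantile normalization. The largest of these was Gcnt3, challenge on the KO-labelled arrays, at 0.46 and just below 0 with normexp, and the others were at most 0.16. With normexp, 3 members were at least 2-fold higher and 0 lower with challenge on the KO-labelled arrays, and 0 lower on the wild-type arrays. With the mean of probes, 0 were lower on either. At 1.5-fold, 9 were higher and 2 lower with challenge on the KO-labelled arrays, 5 and 2 on the wild-type arrays, 4 and 4 between genotypes under challenge, and 5 lower between genotypes on the control arrays. Against the wild-type control array, chosen after seeing the data, the KO-labelled challenged array had 3 members 2-fold higher and 4 lower. Over all genes, limma called 4 genes for challenge with normexp, 2 with quantile normalization, 5 over genes detected on all 4 arrays and 0 with no trend, against 1, and for genotype 9 with normexp and 8 over genes detected on all 4 arrays, against 0. The cause was not tested. No paired analysis was possible because each group is 1 array with no replicate number, and no array could be left out for the same reason. Genes near background, such as Gcnt3, Chst2 and B3gnt6, were limited by their signal.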
